A study of Mus musculus with 6 samples.

Results

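RNA polymerases I, II and III are the enzymes that copy nuclear DNA into RNA, and the genes for their subunits were followed in cultured mouse CD4 T cells. The members are the protein-coding genes whose symbols begin with Polr1, Polr2 or Polr3 and go on with a letter, which gave 28 of the 56748 genes in the deposited count table, 5 named Polr1, 13 named Polr2 and 10 named Polr3. All 28 passed the filter on low counts that left 14936 genes for testing. The symbol rule leaves out the pseudogene *Polr2k-ps* and the mitochondrial polymerase *Polrmt*. It also misses 4 subunits that the name table lists under other symbols (*Twistnb*, *Cd3eap* and *Znrd1* of Pol I and *Crcp* of Pol III), whose values are given beside those of the members and counted apart.

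Naïve CD4 cells came from wild-type C57BL/6 mice aged 6 to 10 weeks, from spleen and lymph nodes by the study's methods and from splenocytes by the labels, and were cultured for 3 days under Treg polarizing conditions, in which the T cell receptor and CD28 are stimulated in the presence of IL-2, TGF-β and antibodies to IFN-γ and IL-4. The 3 libraries labelled scramble come from cells given a scrambled antisense oligonucleotide (ASO) at 10 μM, and the 3 labelled ASO from cells given an ASO directed at *Pgam*, which encodes the glycolytic enzyme phosphoglycerate mutase, at the same dose. RNA was taken from unsorted cells, so each library is a mixture of whatever cells the culture held. The study asked what *Pgam* ASOs do to the transcriptome of cells on the way to becoming Tregs.

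Pol I makes the large ribosomal RNA precursor, Pol II makes messenger RNA and many small RNAs, and Pol III makes transfer RNA, 5S ribosomal RNA and other short RNAs. Each enzyme is built around a pair of large catalytic subunits, some smaller subunits are shared among the enzymes, and others belong to one enzyme alone. T cells that leave the resting state grow and divide quickly, and growth of this kind needs ribosomes and transfer RNA, the products of Pol I and Pol III.

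Total counts were 17588755, 18032805 and 16231127 in replicates 1, 2 and 3 labelled scramble, and 16589933, 15860476 and 16803881 in replicates 1, 2 and 3 labelled ASO. The targeted genes were examined first. *Pgam1* was at 598, 477 and 706 CPM (counts scaled to library size with TMM factors) in the libraries labelled scramble and at 657, 660 and 706 CPM in those labelled ASO. The groups overlapped, and the log2 fold change of *Pgam1*, ASO over scramble as for every fold change given here, was 0.18 (SE 0.13, adjusted p = 0.331, by the quasi-likelihood method of edgeR, corrected after Benjamini and Hochberg over all tested genes). *Pgam1* transcripts share 37.1% of their stretches of 31 bases with the pseudogene *Pgam1-ps2*, and kallisto, the counting program, splits reads from shared stretches between genes, so its level is uncertain, and summed with the genes that share such stretches its log2 fold change was 0.18 (edgeR adjusted p = 0.332, within 0.0528 to 0.793 over its alternatives). *Pgam2* was at 5.22, 6.74 and 2.85 CPM in the libraries labelled scramble and at 2.98, 2.69 and 2.60 CPM in those labelled ASO, with a log2 fold change of -0.84 (SE 0.31, edgeR adjusted p = 0.0854). *Pgam2* was called lower with no filter on low counts (edgeR adjusted p = 0.0292) and without replicate 3 labelled scramble (0.0144), in a range of 0.0144 to 0.286 over its alternatives. The study reports lower PGAM1 protein by flow cytometry in cells given *Pgam* ASOs, and protein was not analysed here. In the RNA, with all 6 libraries and the filter, neither gene reached the threshold of 0.05, and the fitted difference of *Pgam1* was above 0. The groups are therefore called by their labels throughout, and every direction below is that of the labels.

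The cells carried the markers of CD4 T cells. All 7 genes of that list (*Cd3d*, *Cd3e*, *Cd3g*, *Cd4*, *Cd5*, *Cd28* and *Trac*) were present, and their summed level was 2625, 2878 and 2425 CPM in the libraries labelled scramble and 1994, 2049 and 2125 CPM in those labelled ASO, with *Cd4* the most abundant. The list was lower in the libraries labelled ASO without overlap in 7 of 7 genes, 3 of them called (*Cd5*, *Cd28* and *Trac*), where among all tested genes the groups did not overlap for 39.5% and 9.15% were called lower. The number called lower was 1 without replicate 1 labelled scramble or replicate 2 labelled ASO, 6 without replicate 3 labelled scramble and 5 without replicate 3 labelled ASO, and *Cd28* was called in each of the 6 fits that leave out a library. In bulk samples fewer cells of a type and less RNA per cell cannot be told apart, and this holds for each level given here.

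Members of all 3 enzymes were expressed, and per length of transcript Pol II stood above the other enzymes. The level of each enzyme was summarised as the geometric mean, over the subunits that belong to it alone, of CPM per kilobase of exon. For Pol II (8 subunits) it was 29.1, 26.1 and 29.4 CPM per kilobase in replicates 1, 2 and 3 labelled scramble and 33.8, 34.0 and 30.9 in those labelled ASO. For Pol I (3 subunits) it was 8.51, 7.74 and 8.84 CPM per kilobase in the libraries labelled scramble and 12.4, 11.3 and 9.64 in those labelled ASO. For Pol III (10 subunits) it was 8.35, 7.99 and 7.89 CPM per kilobase in the libraries labelled scramble and 9.67, 9.04 and 8.65 in those labelled ASO. Pol II was the highest in each of the 6 libraries. Pol I and Pol III, at 8.36 ± 0.565 and 8.08 ± 0.240 CPM per kilobase (SD, n = 3) in the libraries labelled scramble, were within their spread of each other. In the libraries labelled ASO they were at 11.1 ± 1.38 and 9.12 ± 0.513 CPM per kilobase, with Pol I the higher in each of the 3. In each enzyme the 3 libraries labelled ASO lay above the 3 labelled scramble, by 33.0% in the mean for Pol I, 16.5% for Pol II and 12.9% for Pol III.

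The level of Pol I relative to that of Pol II was 0.292, 0.296 and 0.300 in the libraries labelled scramble and 0.367, 0.333 and 0.312 in those labelled ASO, so the groups did not overlap. This ratio rests on few genes. With *Twistnb*, *Cd3eap* and *Znrd1* counted among 6 Pol I subunits, a set added after the data had been seen, it was 0.374, 0.378 and 0.377 in the libraries labelled scramble and 0.398, 0.386 and 0.379 in those labelled ASO, and the difference of the means shrank from 13.9% to 3.04%. The order of Pol I and Pol III also rests on this choice. With the subunits outside the rule, Pol I stood above Pol III (11 subunits) in all 6 libraries, at 10.6 ± 0.650 against 8.75 ± 0.244 CPM per kilobase in those labelled scramble and 12.8 ± 0.930 against 9.88 ± 0.550 in those labelled ASO (SD, n = 3). With the members alone, the level of Pol I relative to Pol III was 1.02, 0.968 and 1.12 in the libraries labelled scramble and 1.28, 1.25 and 1.11 in those labelled ASO, and the groups overlapped through replicate 3 of each label. The level of Pol III relative to Pol II also overlapped between the groups, at 0.287 ± 0.0189 in the libraries labelled scramble and 0.277 ± 0.0107 in those labelled ASO (SD, n = 3). No p is given for these summaries, because the members were chosen with results of these data known.

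**Figure D1:**
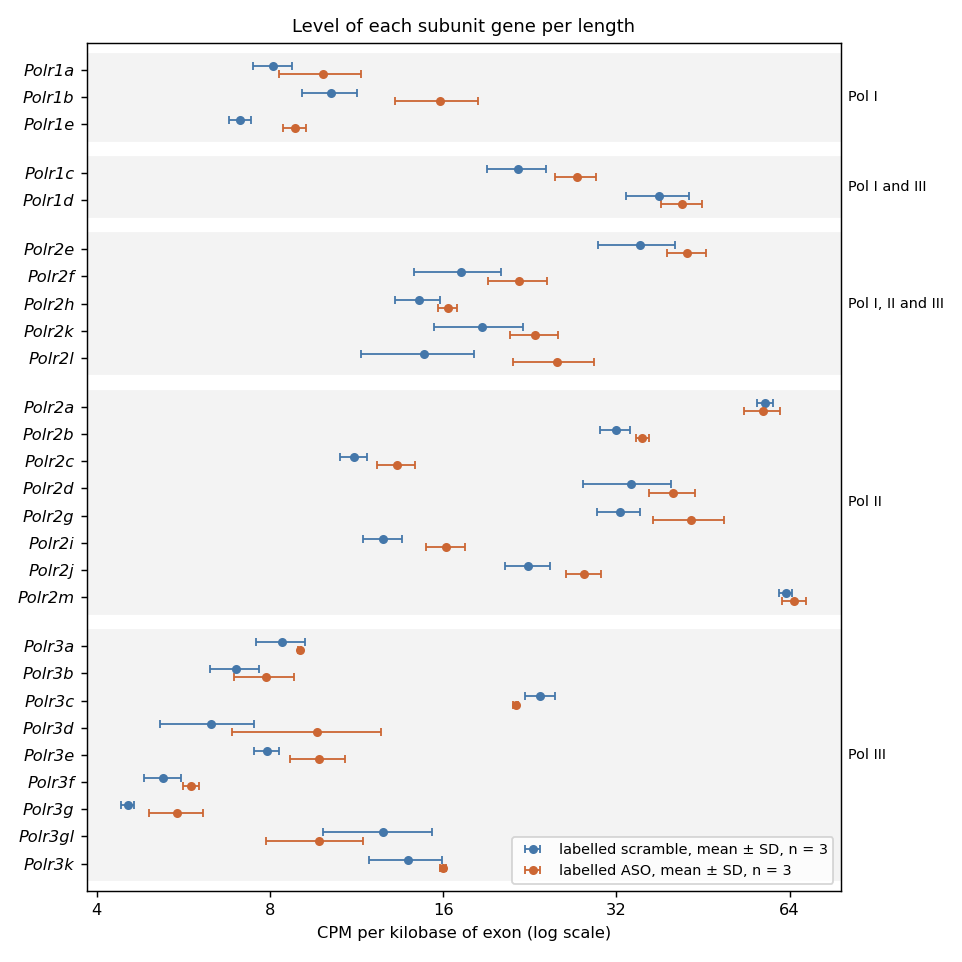
Level of each of 27 subunit genes in CPM per kilobase of exon, on a log scale, with the mean and SD of the 3 libraries of each label and the genes grouped by the enzymes that hold the subunit. *Polr2m* and *Polr2a* are the highest at 63.0 and 58.0 in the libraries labelled scramble, and *Polr3g* is at 4.53.

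Levels differed widely within an enzyme. Among the genes counted for Pol II, *Polr2m* and *Polr2a* were the highest. They were at 63.0 ± 1.62 and 58.0 ± 1.93 CPM per kilobase in the libraries labelled scramble (SD, n = 3). *Polr2a* encodes the largest subunit, with the repeated tail that is phosphorylated during transcription. *Polr2m* encodes a protein that binds the assembled enzyme. The symbol rule counts *Polr2m* in the level of Pol II, which was not summarised without it. The lowest of that enzyme were *Polr2i* at 12.6 ± 0.986 and *Polr2c* at 11.2 ± 0.614 CPM per kilobase, 2 neighbours in the order that differed by about as much as their spread. The largest subunits of the other enzymes, *Polr1a* at 8.11 ± 0.622 and *Polr3a* at 8.39 ± 0.825 CPM per kilobase, did not differ beyond their spread and lay far below *Polr2a*. In Pol III, *Polr3c* stood above the rest at 23.6 ± 1.44 CPM per kilobase, with *Polr3k* next at 13.9 and *Polr3g* at 4.53 ± 0.114. The 7 subunits used by more than one enzyme ran from 14.5 for *Polr2h* to 38.0 for *Polr1d*.

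Turning to single genes, 3 of the 28 members were called higher in the libraries labelled ASO at an edgeR adjusted p under 0.05, namely *Polr1b*, *Polr2l* and *Polr2g*, and 0 were called lower. Among all 14936 tested genes 8.03% were called higher, 9.15% lower and 17.2% in either direction, so that the share of members called higher, 10.7%, was close to the background. At an unadjusted p under 0.05, 15 members (53.6%) were higher and 0 lower, against 17.2% of all tested genes higher and 17.7% lower. DESeq2 called 7 members higher (25%) and 0 lower, against 10.4% and 11.1% of all tested genes, and limma-voom called 3 higher (10.7%) and 0 lower, against 7.99% and 8.94%. The fitted difference was above 0 for 25 of the 28 members, also with RLE size factors or library size alone. Their median log2 fold change was 0.28, against -0.0061 for all tested genes and 0.015 for the 11910 protein-coding genes tested. The groups did not overlap for 14 members, 13 of them higher in the libraries labelled ASO, which is 50% of the members against 39.5% of all tested genes.

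By enzyme, 1 of the 3 Pol I subunits, 1 of the 8 Pol II subunits, 0 of the 10 Pol III subunits and 1 of the 7 subunits in more than one enzyme were called higher. The Pol III count at an unadjusted p under 0.05 was 4 higher and 0 lower. DESeq2 called 2 of them, *Polr3d* included, and limma-voom called none of the 10. The median log2 fold change was 0.31 for Pol I, 0.24 for Pol II, 0.18 for Pol III and 0.31 for the shared subunits. Whether these medians differ between the enzymes was not tested.

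**Figure D2:**
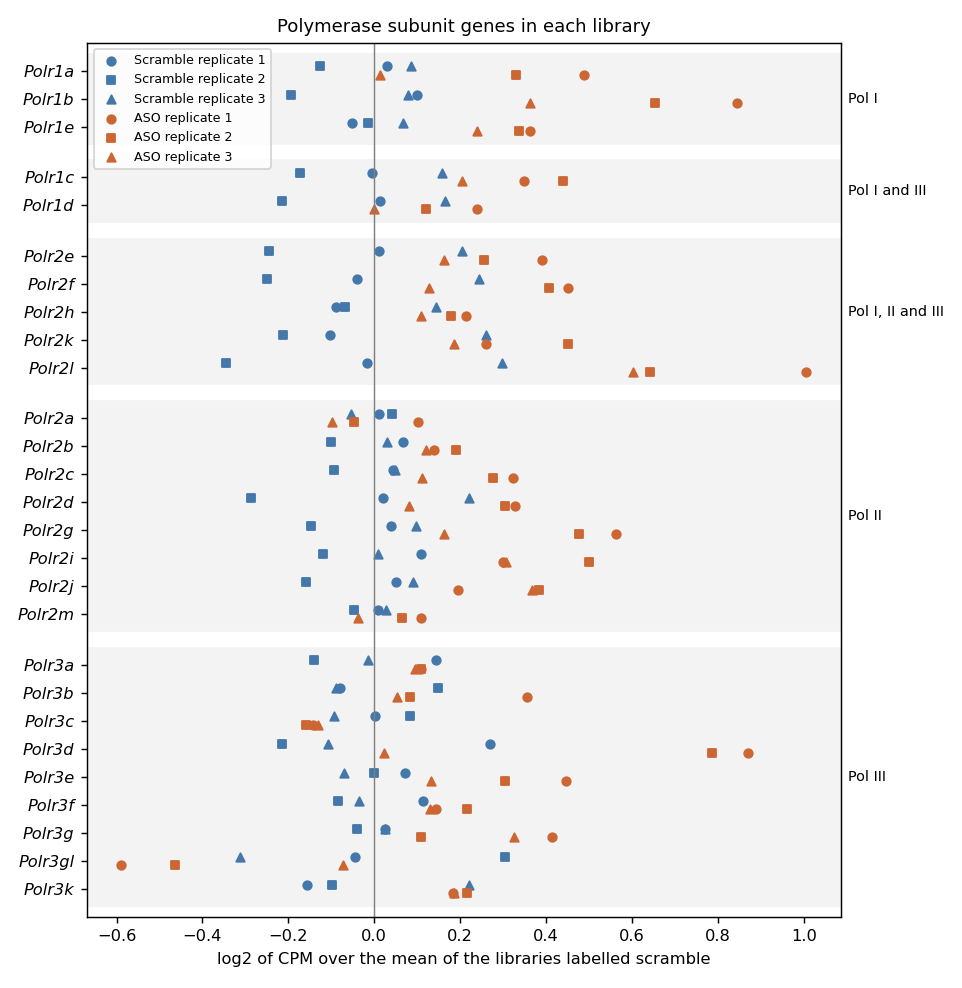
Each point is 1 library, placed by the log2 of its CPM over the mean CPM of the 3 libraries labelled scramble, for 27 subunit genes grouped by enzyme. For *Polr1b*, *Polr2l* and *Polr2g* the 3 libraries labelled ASO lie to the right of the 3 labelled scramble, while for *Polr2a* both labels are mixed around 0.

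Pol I was represented by its pair of catalytic subunits and *Polr1e*. *Polr1b* encodes the second largest subunit, which forms the active centre together with the product of *Polr1a*. It lies on chromosome 2 from 129100995 to 129126594 on the plus strand (ENSMUSG00000027395, GENCODE M21 annotation of GRCm38). Its level was 63.2, 51.6 and 62.3 CPM in replicates 1, 2 and 3 labelled scramble and 106, 92.8 and 75.8 CPM in replicates 1, 2 and 3 labelled ASO. All 3 libraries labelled ASO were higher than all 3 labelled scramble, with replicate 3 labelled ASO the nearest to them. The log2 fold change of *Polr1b* was 0.63 (SE 0.13, 95% interval 0.34 to 0.92, edgeR adjusted p = 0.0138). Without replicate 2 labelled ASO the adjusted p was 0.0771, at a log2 fold change of 0.62, and with any other library left out *Polr1b* was called, with an adjusted p between 0.00435 and 0.0771 over all 6.

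*Polr1a*, the gene of the largest Pol I subunit (chromosome 6 from 71909053 to 71984935), was at 98.2, 88.1 and 102 CPM in the libraries labelled scramble and at 135, 121 and 97.1 CPM in those labelled ASO. Replicates 1 and 2 labelled ASO were above every library labelled scramble, whereas replicate 3 labelled ASO lay within their range. The log2 fold change of *Polr1a* was 0.29 (SE 0.12, 95% interval 0.02 to 0.56, edgeR adjusted p = 0.118), and without replicate 3 labelled ASO it was 0.42 with an adjusted p of 0.0224. With no filter on low counts the adjusted p of *Polr1a* was 0.0315, within a range of 0.0224 to 0.374 over its alternatives.

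*Polr1e* encodes a subunit that pairs with the product of *Cd3eap* on the side of the enzyme. It was at 26.7, 27.4 and 29.0 CPM in the libraries labelled scramble and at 35.6, 35.0 and 32.7 CPM in those labelled ASO. The groups of *Polr1e* did not overlap, and its edgeR adjusted p of 0.05001 fell just outside the threshold, at a log2 fold change of 0.31 (SE 0.10). It was under the threshold with DESeq2 (0.0458), with RLE size factors, with genes summed that share 31-base stretches (0.0499) and without replicate 3 of either label (0.0470 for scramble and 0.0456 for ASO), in a range of 0.0456 to 0.178. Its partner *Cd3eap*, outside the symbol rule, was at 27.6, 22.5 and 29.5 CPM in the libraries labelled scramble and at 38.8, 40.4 and 33.3 CPM in those labelled ASO. *Cd3eap* was called higher, with a log2 fold change of 0.50 (SE 0.13, edgeR adjusted p = 0.0284), in 2 of the 6 fits that leave out a library. The other Pol I subunits outside the rule were not called, with log2 fold changes of 0.06 for *Twistnb* and -0.19 for *Znrd1*. *Twistnb* shares 10.3% of its 31-base stretches, mainly with *Gm8670*, and is uncertain for that reason.

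The subunits used by more than one enzyme were fitted higher in 7 of 7 cases, and *Polr2l* was the one called. *Polr2l* encodes a small zinc-binding subunit of all 3 enzymes and lies on chromosome 7 from 141471860 to 141475132 on the minus strand (ENSMUSG00000038489). Its level was 24.2, 19.3 and 30.1 CPM in the libraries labelled scramble and 49.2, 38.2 and 37.2 CPM in those labelled ASO. The lowest library labelled ASO was above the highest labelled scramble, and replicate 1 labelled ASO stood apart at the top. The log2 fold change of *Polr2l* was 0.76 (SE 0.17, 95% interval 0.39 to 1.14, edgeR adjusted p = 0.0180), the largest of the 28 members. Its call was lost without replicate 1 labelled scramble (adjusted p = 0.0699), replicate 1 labelled ASO (0.0605) or replicate 2 labelled ASO (0.0690), over a range of 0.00502 to 0.0699 for the 6 libraries. Other genes, mainly *Usp50*, hold 27.3% of the 31-base stretches of *Polr2l* transcripts, and kallisto splits the reads from such stretches. Summed with the genes that share at least 10% of its stretches, the log2 fold change was 0.74 with an adjusted p of 0.0193.

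*Polr2e*, *Polr2f*, *Polr2h* and *Polr2k*, the other subunits common to the 3 enzymes, had log2 fold changes between 0.17 and 0.34 and were not called, although *Polr2e* and *Polr2f* were with no filter on low counts (edgeR adjusted p = 0.0462 and 0.0213) and without replicate 3 labelled scramble (0.0337 and 0.0266), in ranges up to 0.318 and 0.289. *Polr2k* (adjusted p = 0.206 from edgeR) shares 27.3% of its 31-base stretches, mainly with the pseudogene *Gm14567*, and is uncertain for that reason, as are *Polr2c* (30.8%, mainly *Dok4*), *Polr2h* (18%, mainly *Gm7511*), *Polr2f* (15.6%) and *Polr1d* (11.6%, mainly *Gm12751*). *Polr1c* and *Polr1d* encode the dimer on which Pol I and Pol III are assembled. *Polr1c* was at 49.1, 43.7 and 55 CPM in the libraries labelled scramble and at 62.8, 66.9 and 56.8 CPM in those labelled ASO. Its groups did not overlap, with a log2 fold change of 0.34 (SE 0.11, edgeR adjusted p = 0.0573). *Polr1c* was called with DESeq2 (adjusted p = 0.0436), in edgeR when low counts were not filtered (0.0192) and without replicate 3 labelled scramble (0.0250) or ASO (0.0389), in a range of 0.0192 to 0.214, while *Polr1d* overlapped at a log2 fold change of 0.13 (SE 0.11, edgeR adjusted p = 0.423).

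Among the subunits of Pol II alone, the catalytic pair did not pass the test. *Polr2a* (chromosome 11 from 69733997 to 69758637) was at 413, 422 and 395 CPM in the libraries labelled scramble and at 440, 397 and 383 CPM in those labelled ASO. The groups were mixed, and the log2 fold change of -0.01 (SE 0.08, edgeR adjusted p = 0.926) had a 95% interval of -0.20 to 0.17. *Polr2b*, the second largest subunit (chromosome 5 from 77310147 to 77349324), was at 156, 139 and 152 CPM in the libraries labelled scramble and at 164, 170 and 162 CPM in those labelled ASO. Its groups did not overlap, but the difference was small, with a log2 fold change of 0.15 (SE 0.08, 95% interval -0.03 to 0.33, edgeR adjusted p = 0.211).

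*Polr2g* encodes part of the stalk, which sits near the path of the emerging RNA, and *Polr2d* encodes its partner there. *Polr2g* lies on chromosome 19 from 8793127 to 8798577 on the minus strand (ENSMUSG00000071662) and has 0% of its 31-base stretches in common with another gene. It was at 41.5, 36.5 and 43.2 CPM in the libraries labelled scramble and at 59.7, 56.2 and 45.2 CPM in those labelled ASO. Replicates 1 and 2 labelled ASO were well above the rest, and replicate 3 labelled ASO was only just above the highest library labelled scramble. The log2 fold change of *Polr2g* was 0.41 (SE 0.12, 95% interval 0.14 to 0.68, edgeR adjusted p = 0.0433). The call of *Polr2g* held without replicate 3 of either label and was lost without replicate 1 labelled scramble (adjusted p = 0.115), replicate 2 labelled scramble (0.111), replicate 1 labelled ASO (0.148) or replicate 2 labelled ASO (0.161), with a lowest value of 0.0128. *Polr2d* had a log2 fold change of 0.24 (SE 0.14, edgeR adjusted p = 0.233), and its groups overlapped.

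The rest of Pol II was not called. *Polr2i*, a subunit near the jaws of the enzyme, and *Polr2j*, which pairs with the product of *Polr2c*, did not overlap between the groups. Their log2 fold changes were 0.37 for *Polr2i* (edgeR adjusted p = 0.0650) and 0.32 for *Polr2j* (edgeR adjusted p = 0.0707). *Polr2i* shares 22.3% of its 31-base stretches with *Tbcb* and *Polr2j* shares 13.2% with *Lrwd1*, and summed with these partners both had an edgeR adjusted p under 0.05, at 0.0236 and 0.0486, the lowest of their alternatives, which ran up to 0.237 and 0.225. *Polr2c* had a log2 fold change of 0.24 and *Polr2m* of 0.05.

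**Figure D3:**
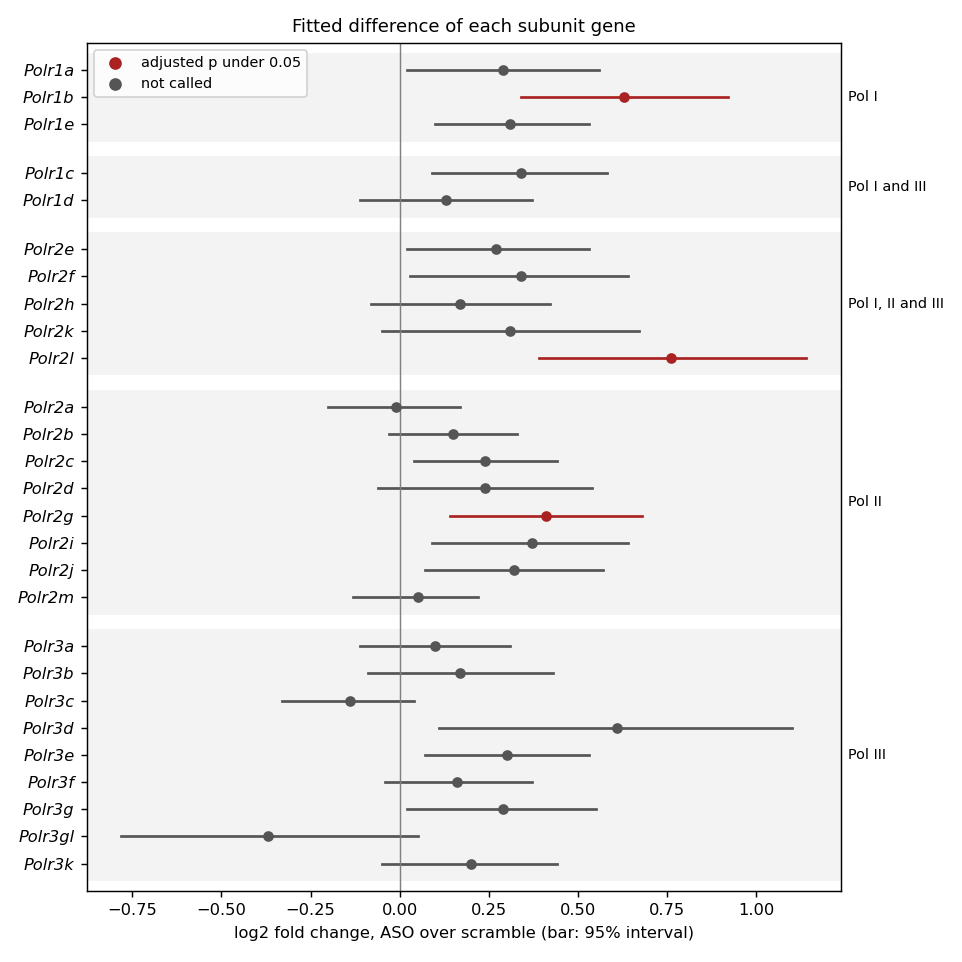
Fitted log2 fold change of each of 27 subunit genes, ASO over scramble, with its 95% interval from edgeR; genes with an adjusted p under 0.05 are in red. The fitted values run from -0.37 for *Polr3gl* to 0.76 for *Polr2l*.

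Pol III has the most subunits of its own, and 0 of the 10 passed the test in edgeR. *Polr3a*, the largest subunit (chromosome 14 from 24448696 to 24487058), was at 54.0, 44.4 and 48.4 CPM in the libraries labelled scramble and at 52.7, 52.7 and 52.2 CPM in those labelled ASO. *Polr3b*, the second largest (chromosome 10 from 84622292 to 84727178), was at 34.8, 40.8 and 34.6 CPM in the libraries labelled scramble and at 47.1, 39.0 and 38.2 CPM in those labelled ASO. Both overlapped between the groups, with log2 fold changes of 0.10 for *Polr3a* (SE 0.10, edgeR adjusted p = 0.479) and 0.17 for *Polr3b* (SE 0.12, edgeR adjusted p = 0.322).

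*Polr3d* and *Polr3e* encode a dimer that takes part in initiation and termination. *Polr3d* was at 21.8, 15.6 and 16.8 CPM in the libraries labelled scramble and at 33.1, 31.2 and 18.4 CPM in those labelled ASO. Replicates 1 and 2 labelled ASO were high, and replicate 3 labelled ASO lay within the range of the libraries labelled scramble. The log2 fold change of *Polr3d* was 0.61 (SE 0.22, edgeR adjusted p = 0.0841), and without replicate 3 labelled ASO its adjusted p was 0.00832, the range over its alternatives being 0.000224 to 0.265. *Polr3e* did not overlap between the groups, with a log2 fold change of 0.30 (SE 0.10, edgeR adjusted p = 0.0717, and 0.0316 to 0.237 over its alternatives, the lowest without replicate 3 labelled ASO). *Crcp*, outside the symbol rule, had a log2 fold change of 0.18, and among the other members of this enzyme *Polr3f* was at 0.16, *Polr3k* at 0.20 and *Polr3c* at -0.14. In *Polr3c* the 3 libraries labelled ASO, at 72.6, 71.7 and 73.1 CPM, lay below the 3 labelled scramble, at 80.2, 84.9 and 75.1 CPM, with an edgeR adjusted p of 0.237.

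*Polr3g* and *Polr3gl* encode alternative forms of 1 Pol III subunit, so that an enzyme holds the product of one or the other. *Polr3g* is known for high expression in stem cells and tumours, and *Polr3gl* for expression in most differentiated tissues. *Polr3g* (chromosome 13 from 81673843 to 81711013) was at 18.1, 17.3 and 18.1 CPM in the libraries labelled scramble and at 23.7, 19.2 and 22.3 CPM in those labelled ASO. *Polr3gl* (chromosome 3 from 96577872 to 96594181) was at 19.4, 24.7 and 16.1 CPM in the libraries labelled scramble and at 13.3, 14.5 and 19.0 CPM in those labelled ASO. *Polr3g* was higher in all 3 libraries labelled ASO, and *Polr3gl* was lowest in replicates 1 and 2 labelled ASO but overlapped through replicate 3 labelled ASO. Alone, neither passed the test, with log2 fold changes of 0.29 for *Polr3g* (SE 0.12, 95% interval 0.02 to 0.55, edgeR adjusted p = 0.119) and -0.37 for *Polr3gl* (SE 0.19, 95% interval -0.78 to 0.05, edgeR adjusted p = 0.189).

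The ratio of these genes within a library needs no scaling between libraries. The log2 of *Polr3g* over *Polr3gl* counts, with 0.5 added to each, was -0.10, -0.51 and 0.17 in replicates 1, 2 and 3 labelled scramble and 0.84, 0.40 and 0.24 in replicates 1, 2 and 3 labelled ASO. The 3 libraries labelled ASO had the 3 highest ratios, and replicate 3 of each label lay closest to the other group. The difference of the means was 0.64 (SE 0.27), with a p of 0.1 in a two-sided exact permutation test over the 6 libraries, which is the smallest p that 3 against 3 can give and cannot pass 0.05. Per length of transcript, *Polr3gl* was the higher of the 2 in both groups, at 12.6 ± 2.72 and 9.75 ± 1.88 CPM per kilobase against 4.53 ± 0.114 and 5.52 ± 0.598 for *Polr3g* (SD, n = 3, libraries labelled scramble and ASO in turn).

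**Figure D4:**
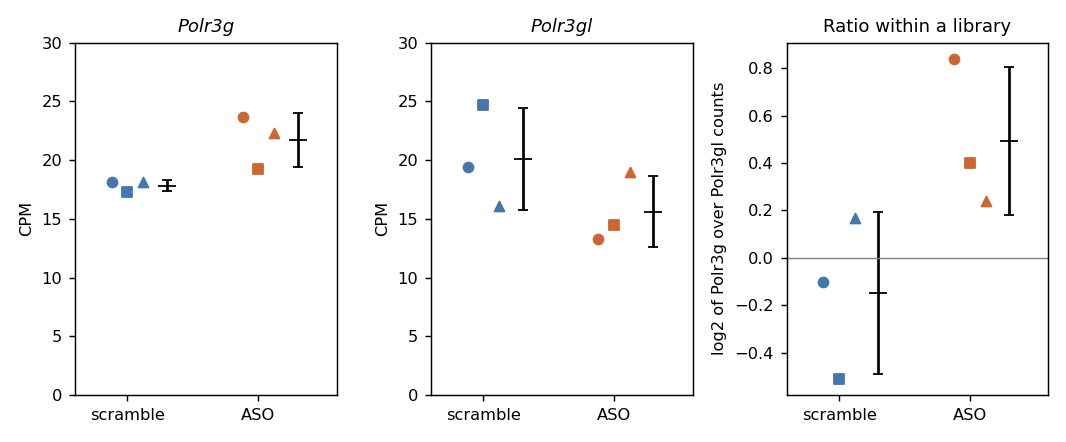
CPM of *Polr3g* and of *Polr3gl* and the log2 ratio of their counts in each library, with circles, squares and triangles for replicates 1, 2 and 3 of a label and bars for the mean and SD of 3 libraries. The ratio runs from -0.51 to 0.17 in the libraries labelled scramble and from 0.24 to 0.84 in those labelled ASO.

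Promoter sequence was looked at for the members called higher. The RefSeq promoter table (GRCm38.p6) holds 24 promoters of 22 members. *Polr2g* has no entry there. The 250 bases before the start of *Polr1b* (chr2:129100746-129100995, plus strand) and of *Polr2l* (chr7:141475154-141475403, minus strand) are shown 5′ to 3′ as RefSeq places the start, with each GC box (GGGCGG on either strand) in capitals.
Polr1b: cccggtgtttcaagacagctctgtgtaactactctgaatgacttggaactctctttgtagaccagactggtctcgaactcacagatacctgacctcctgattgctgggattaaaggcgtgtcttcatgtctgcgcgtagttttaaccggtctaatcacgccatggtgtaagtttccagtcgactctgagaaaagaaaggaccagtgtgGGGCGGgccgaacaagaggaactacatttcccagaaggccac
Polr2l: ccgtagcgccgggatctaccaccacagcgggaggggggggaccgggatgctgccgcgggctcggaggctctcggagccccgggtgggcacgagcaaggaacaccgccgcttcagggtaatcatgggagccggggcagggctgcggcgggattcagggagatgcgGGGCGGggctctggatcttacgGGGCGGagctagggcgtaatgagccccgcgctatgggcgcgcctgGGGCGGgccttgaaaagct
The *Polr1b* window holds 1 GC box, which begins 42 bases before the start, and the *Polr2l* window holds 3, which begin 86, 64 and 19 bases before it. These distances are from the RefSeq starts, at 129100996 for *Polr1b* and 141475153 for *Polr2l*, which lie 1 and 21 bases from the GENCODE starts at 129100995 and 141475132. A GC box is held by 32.7% of all 32851 promoters of this length in the RefSeq set, and by 15 of the 24 promoters of members, or 62.5%. The other motifs searched on both strands were absent from both windows. They were the ETS core CCGGAA (in 12% of all promoters and 9 of the 24), the E-box CACGTG bound by MYC and its partners (6.02% and 2 of the 24, *Polr3c* and *Polr3gl*), the NRF1 core TGCGCA (6.43% and 3 of the 24), the TATA box TATAAA (12.4% and 2 of the 24) and the YY1 core ATGGCGG (2.21% and 0 of the 24). A match is a run of letters and not a bound site. *Myc* itself was at 309, 251 and 305 CPM in the libraries labelled scramble and at 282, 269 and 239 CPM in those labelled ASO (log2 fold change -0.13, SE 0.10, edgeR adjusted p = 0.406), and *Polrmt*, the mitochondrial polymerase, had a log2 fold change of 0.13 (SE 0.11, edgeR adjusted p = 0.432).

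The enzymes work with factors that start, pause, release, end or assemble them, and 5 lists of these hold 91 genes, all of them tested. In the libraries labelled ASO 8 were called higher and 2 lower at an edgeR adjusted p under 0.05, and the median log2 fold change was 0.12. The share called higher, 8.79%, is close to the 8.03% of all tested genes. Of the 11 assembly and import factors 4 were called higher, of the 23 Pol II pausing and elongation factors 3 were called higher and 1 lower, of the 9 Pol I initiation and termination factors 1 was called higher, and of the 17 Pol III initiation factors and repressor 1 was called lower. Of the 31 general initiation factors of Pol II 0 were called by edgeR, 5 were higher and 0 lower at an unadjusted p under 0.05, DESeq2 and limma-voom called 0 each, and the fitted log2 values ran from -0.23 to 0.30. With edgeR 2 of these were called higher with no filter on low counts, and 1 with genes summed that share 31-base stretches, without replicate 3 labelled scramble or without replicate 3 labelled ASO.

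*Gpn1* and *Gpn2* encode GTPases that take part in assembly and nuclear import of Pol II, and *Ruvbl1* and *Ruvbl2* encode the pair of AAA+ ATPases that work with the R2TP chaperone complex on polymerases and other large complexes. *Ruvbl2* was at 102, 87.7 and 117 CPM in the libraries labelled scramble and at 163, 144 and 136 CPM in those labelled ASO, and *Ruvbl1* at 69.7, 56.5 and 72.1 CPM and at 108, 98.1 and 84.1 CPM in the same order. The 3 libraries labelled ASO were the higher in both genes. The log2 fold changes were 0.53 for *Ruvbl2* and 0.55 for *Ruvbl1* (SE 0.12 for each, edgeR adjusted p = 0.0168 and 0.0173). *Ruvbl1* shares 57.0% of its 31-base stretches with the gene *Gm5837*, and *Ruvbl2* shares 12.3%, mainly with *Gys1*, so both levels are uncertain. Summed with the genes that share such stretches, *Ruvbl1* and *Ruvbl2* had log2 fold changes of 0.55 and 0.53 (edgeR adjusted p = 0.0167 and 0.0168). *Gpn1* was at 23.4, 23.3 and 25.8 CPM in the libraries labelled scramble and at 39.1, 36.3 and 30.4 CPM in those labelled ASO, with a log2 fold change of 0.54 (SE 0.12, edgeR adjusted p = 0.0168), and *Gpn2* had a log2 fold change of 0.56 (SE 0.15, edgeR adjusted p = 0.0328). The related *Gpn3* was at 0.25 and was not called, and *Rpap2*, which helps to bring Pol II into the nucleus, was at -0.20 and was not called.

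*Rrn3* encodes the factor that makes Pol I competent to start on ribosomal DNA. It was at 78.4, 65.7 and 77.9 CPM in the libraries labelled scramble and at 110, 105 and 85.2 CPM in those labelled ASO, without overlap, and its log2 fold change was 0.43 (SE 0.11, edgeR adjusted p = 0.0309). *Maf1* encodes the repressor of Pol III that acts when nutrients or growth signals are low. It was at 84.9, 99.3 and 83.6 CPM in the libraries labelled scramble and at 60.8, 64.4 and 75.7 CPM in those labelled ASO. Every library labelled ASO was lower, with replicate 3 the nearest to the libraries labelled scramble, and the log2 fold change of *Maf1* was -0.41 (SE 0.11, edgeR adjusted p = 0.0299).

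Of the Pol II factors, *Nelfe* and *Nelfcd* encode parts of the complex that holds Pol II paused near the start of genes, *Tcea1* encodes a factor that rescues stalled Pol II, and *Supt4a* encodes the small partner in the DSIF elongation factor. The log2 fold changes of those called higher were 0.38 for *Nelfe* (edgeR adjusted p = 0.0251), 0.32 for *Tcea1* (0.0330) and 0.29 for *Nelfcd* (0.0346). *Supt4a* was at 86.7, 93.1 and 85.4 CPM in the libraries labelled scramble and at 68.6, 62.8 and 66.7 CPM in those labelled ASO, with the groups well apart and a log2 fold change of -0.42 (SE 0.08, edgeR adjusted p = 0.0116). *Supt4a* shares 24.5% of its 31-base stretches with *Supt4b*, and *Tcea1* shares 30%, mainly with *Tcea1-ps1*, so both are uncertain. Summed with the genes that share such stretches, *Supt4a* and *Tcea1* had log2 fold changes of -0.42 and 0.32 (edgeR adjusted p = 0.0117 and 0.0335). The partner of *Supt4a* in DSIF, *Supt5*, had a log2 fold change of 0.05, and the other NELF genes were at 0.16 (*Nelfa*) and 0.05 (*Nelfb*), none of them called. With replicate 2 labelled ASO left out, 0 of the 91 factors were called in either direction, among 160 genes higher and 231 lower of 15573 tested. Leaving out replicate 1 labelled scramble also left 0, leaving out replicate 1 labelled ASO left 0 higher and 1 lower, and leaving out replicate 2 labelled scramble left 3 higher and 1 lower. Over the 6 fits that each leave out a library, *Supt4a* was called in 4, *Gpn1*, *Ruvbl1* and *Ruvbl2* in 3, *Rrn3*, *Maf1*, *Gpn2*, *Nelfe* and *Tcea1* in 2 and *Nelfcd* in 1.

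**Figure D5:**
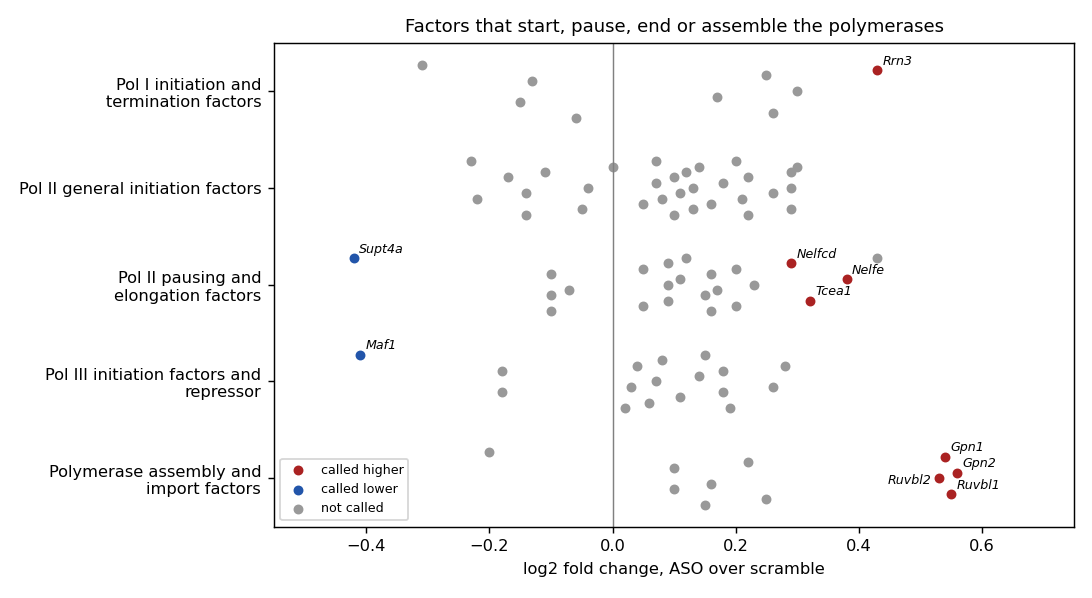
Fitted log2 fold change, ASO over scramble, of the 91 factors in 5 lists, 1 point a gene, with the genes called higher in red and those called lower in blue. The assembly factors called lie between 0.53 and 0.56, and *Maf1* and *Supt4a* lie at -0.41 and -0.42.

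The number of members called moved with single libraries more than with the tool. The number called among all tested genes moved in the same fits. Without replicate 2 labelled ASO 0 of the 28 were called, beside 160 genes called higher and 231 lower of 15573. Without replicate 1 labelled scramble 1 was (*Polr1b*), beside 223 and 397 of 15413. Without replicate 1 labelled ASO 1 was (*Polr1b*), beside 327 and 544 of 15551. Without replicate 2 labelled scramble 2 were (*Polr1b* and *Polr2l*), beside 496 and 760 of 15273. Without replicate 3 labelled scramble 8 were, all higher, beside 1711 and 1773 of 15508. Without replicate 3 labelled ASO 9 were called higher, *Polr1a*, *Polr1b*, *Polr1c*, *Polr1e*, *Polr2g*, *Polr2l*, *Polr3d* and *Polr3e* among them, beside 1576 genes called higher and 1743 lower of 15464. With each library left out in turn the median log2 fold change of the members stayed between 0.21 and 0.33.

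Other measures moved with the label. Of 14 proliferation markers 8 (57.1%) were called higher in the libraries labelled ASO and 0 lower by edgeR, against 8.03% and 9.15% of all tested genes, with a median log2 fold change of 0.35, and their summed level was 5855, 5045 and 6053 CPM in the libraries labelled scramble and 6660, 6905 and 6556 CPM in those labelled ASO. *Mki67*, the most abundant of them over the 6 libraries together, had a log2 fold change of -0.00, and *Cdk1*, the kinase that drives mitosis, one of 0.44. The count called higher moved with single libraries. It was 0 without replicate 1 of either label or replicate 2 labelled ASO, 2 without replicate 2 labelled scramble, 12 without replicate 3 labelled scramble and 8 without replicate 3 labelled ASO. With all 6 libraries DESeq2 called 12 higher, limma-voom 9 and edgeR with no filter on low counts 11, while at an edgeR adjusted p under 0.01 the count was 0, and 12 were higher at an unadjusted p under 0.05, against 17.2% of all tested genes. Mitochondrially encoded genes took 1.95%, 2.12% and 1.93% of counts in the libraries labelled scramble and 1.24%, 1.44% and 1.32% in those labelled ASO. The part of these differences, and of the lower CD4 T cell markers, in the values of the polymerase genes was not tested.

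Markers of other cells were mostly low. The 6 B cell markers summed to 329, 457 and 222 CPM in the libraries labelled scramble and 85.2, 120 and 150 CPM in those labelled ASO, nearly all from *Ighm*, which was called lower. The 3 NK cell markers summed to 52.5, 32.1 and 54.9 CPM and to 28.2, 26.9 and 24.1 CPM in the same order, nearly all from *Eomes*, the one tested, which was called lower, with *Klrb1c* at 0 in every library. The CD8 T cell pair summed to between 10.8 and 15.7 CPM over the 6 libraries, and its genes were fitted in opposite directions. *Cd8b1*, the more abundant, was fitted at a log2 difference of -0.20 and not called (edgeR adjusted p = 0.454), and *Cd8a* was called higher at 1.12 (0.0286). The 6 mast cell and basophil markers summed to between 6.53 and 7.92 CPM, but single genes of the list went opposite ways. *Kit*, called lower, was at 5.28, 5.39 and 6 CPM in the libraries labelled scramble and at 0.930, 1.47 and 2.78 CPM in those labelled ASO, where it was the most abundant of the list in replicate 3 alone. *Cpa3* was at 0.955, 1.51 and 0.742 CPM and at 2.54, 2.24 and 2.13 CPM in the same order, without overlap. With all 6 libraries and its usual filter, edgeR did not call *Cpa3* (log2 difference 1.09, edgeR adjusted p = 0.0526). With limma-voom, and in edgeR with at least 10 counts in every library, *Cpa3* was the 1 gene of the list called higher. *Gata2*, the other gene tested, was called higher, and of the list DESeq2 called 2 genes higher, as did edgeR without replicate 3 labelled ASO, and edgeR with no filter called 3. These calls were lost without replicate 1 of either label for *Cd8a*, without replicate 1 labelled scramble or replicate 2 labelled ASO for *Kit*, without those or replicate 1 labelled ASO for *Eomes*, without replicate 1 or 2 of either label for *Ighm*, and without any single library other than replicate 3 labelled ASO for *Gata2*. With all 6 libraries, the call of *Gata2* was also lost with limma-voom (adjusted p = 0.0692) or with library size alone in edgeR (0.0505), within 0.0116 to 0.221 over its alternatives, and that of *Ighm* with no filter on low counts (edgeR adjusted p = 0.106), within 0.000762 to 0.106. The 6 myeloid markers, with *Lyz2* the most abundant over the 6 libraries together, summed to between 1.79 and 3.56 CPM and the 6 erythroid markers, with *Alas2* so placed, to between 1.55 and 2.86 CPM, with *Hba-a2* at 0 in every library. Low counts left 2 genes of each list to be tested (*Lyz2* and *Itgam*, *Hba-a1* and *Alas2*), and of these 0 were called by edgeR, DESeq2 or limma-voom and 0 were at an unadjusted p under 0.05, while the other genes of these lists had no test. Their part in the polymerase values was not tested.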

How the data were processed

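Poly-A RNA was sequenced from 6 libraries, 3 labelled scramble and 3 labelled ASO. The authors deposited 1 table of whole-number counts per Ensembl gene, made with kallisto on GRCm38 per the submitters' processing notes, without normalization. The kallisto version, the annotation and the use of strand are not given in the sources used here. All 28 member symbols were found in the name table, and coordinates and exon lengths (the union of exons) came from GENCODE M21. The members and lists were chosen with earlier results of these data known.

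The test was run in edgeR 4.0.16 under R 4.3.3 (filterByExpr, TMM, robust quasi-likelihood test, two-sided, no covariate). P-values were adjusted over all 14936 tested genes by the Benjamini-Hochberg method, and genes with an adjusted p under 0.05 were called. The standard error is the absolute log2 fold change divided by the square root of F. CPM values are TMM-normalized. The ratio of *Polr3g* to *Polr3gl* was tested by exact permutation in scipy 1.17.1. On simulated counts of 14604 genes, 200 of them changed, 67.5% of the changed genes were called. The share called at fold changes as small as those of the members was not tested. Shared 31-base stretches were counted on GENCODE transcripts, both strands, and 8 members share at least 10%.

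Pairs of libraries were compared for duplicates with a chi-square of their counts. Per degree of freedom it was 6.75 to 23.6 for pairs of one label and 15.3 to 76.3 for pairs across labels, so none was a copy. The study calls the libraries of a label biological replicates, but neither it nor the labels say which animals they come from, and p-values measure the spread between these libraries. No batch or date is given. Named in full were the catalytic subunits, *Polr3g*, *Polr3gl* and every member called; of each factor list, among genes called, the 3 with the highest and the 3 with the lowest fold change; and *Pgam1*, *Pgam2*, *Myc* and *Polrmt*. Other members and factors were named after their values were seen. Some genes of the lists are counted but not reported on their own, and the plots show 27 of the 28 members. The alternatives were DESeq2 1.42.0 with its Wald test, limma-voom (limma 3.58.1), RLE size factors, library size alone, a block for replicate number, a minimum of 10 counts in each library, no filter beyond 1 count, summing of genes that share stretches, an adjusted p under 0.01, the longest transcript as length, 1 count added in the ratio, and each library left out. Counting the 4 subunits outside the symbol rule was added after the data were seen.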

Additional observations from a re-analysis of the deposited data

How the results depend on the processing

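The 3 members called higher became 7 with DESeq2, 9 with no filter on low counts, 6 with genes summed that share 31-base stretches and 0 at an adjusted p under 0.01, and ran from 0 to 9 with each library left out in turn. Among all 14936 tested genes, 1199 called higher and 1366 lower became 1554 and 1659 with DESeq2. With no filter 1832 were called higher and 1900 lower of 28512. With genes summed these counts were 1207 and 1370 of 14936, and at an adjusted p under 0.01 they were 173 and 280. With each library left out they ran from 160 to 1711 and from 231 to 1773. With the other tools, scalings and filters, and with the 4 subunits outside the symbol rule, the count of members called higher was 3 or 4, and in every alternative 0 members were called lower. Of the factors, 8 called higher and 2 lower became 0 and 0 at an adjusted p under 0.01, and ran from 0 to 12 and from 0 to 3 with each library left out. The *Polr3g* to *Polr3gl* difference kept its sign in 9 of 9 alternatives and ran from 0.46 to 0.80 with each library left out. Of the log2 fold changes of 10 named members, that of *Polr2a* alone changed sign. It ran from -0.07 to 0.03 with a library left out and was 0.0065 without replicate 2 labelled scramble, 0.00313 without replicate 2 labelled ASO and 0.03 without replicate 3 labelled ASO. With the longest transcript as length, the levels in the libraries labelled scramble were 34.1 CPM per kilobase for Pol II, 11.3 for Pol I and 10.5 for Pol III. The cause of these shifts was not tested; a fit that leaves out a library has fewer samples.

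Equal replicate numbers are not said to mark a shared animal or day, and across genes the deviations of equally numbered libraries correlated at 0.0534, -0.034 and -0.237, against -0.254 to 0.28 for other pairs, so the libraries were not paired. With the number as a replicate block 2 members were called higher (*Polr1b* and *Polr2l*; adjusted p of *Polr2g* 0.0873, edgeR), 3 factors were called higher and 1 lower, 0 of the 14 proliferation markers and 2 of the 7 CD4 T cell markers were called, *Cd8a*, *Ighm* and *Gata2* were not called (adjusted p = 0.0699, 0.0539 and 0.0777, edgeR), and among all genes 480 were higher and 755 lower. The *Polr3g* to *Polr3gl* difference within the block was 0.64 (exact sign-flip permutation p = 0.25, the smallest possible).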
